A study of Mus musculus with 6 samples.

Results

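The set holds 10 genes for monocyte-attracting CC chemokines and their receptors, measured in subcutaneous inguinal fat of male C57BL/6J mice: the ligands Ccl2, Ccl3, Ccl4, Ccl6, Ccl7, Ccl8, Ccl9 and Ccl12, and the receptors Ccr1 and Ccr2. Every probe whose gene name on the array equals one of these symbols was taken, which gave 10 probes, 1 for each gene, of 55681 non-control probes. RNA was measured on 1-colour Agilent arrays, with 1 array per sample and 3 arrays in each of 2 groups. DIO_CR_WR mice were made obese from 2 months of age by 1 month on food that drew 60% of its energy from fat. Their calories were next restricted for some 3 weeks, to the weight of chow-fed mice of equal age, after which free access to the high-fat food brought the weight back. DIO mice stayed on chow until that weight-matched point and had the high-fat food only in the final period, so both groups were eating it when the fat was taken. In the protocol the name DIO belongs to the mice that lost and regained weight, with the others as controls; here the sample titles set the groups. The age labels are 9, 10 and 11 months in DIO_CR_WR and 6, 7 and 8 months in DIO. These labels increase by 1 month per sample in sample order and may not be true ages; as labelled, age and group cannot be told apart. Whether a sample came from a single mouse is not given in the labels, and the p-values measure the spread between these samples.

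Chemokines are small secreted proteins that attract leukocytes along a gradient, and CC chemokines are named for a pair of adjacent cysteines. They act through G protein-coupled receptors on the attracted cell. In obese fat, CCL2 and its receptor CCR2 are known for drawing monocytes out of the blood, which then become macrophages, while CCL3 acts in part through CCR1.

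All 10 genes had a higher mean in DIO_CR_WR than in DIO fat. The log2 fold change (DIO_CR_WR over DIO) was above 0 for 34.4% of all 38457 probes kept, so most of these probes lay on the other side. For 5 of the 10 genes, Ccl7, Ccl8, Ccl3, Ccl4 and Ccr1, the 3 DIO_CR_WR arrays all lay above the 3 DIO arrays, which held for 7.21% of all probes kept. The same 5 genes were higher at an unadjusted p under 0.05 in limma's moderated test, and 0 of the 10 were lower. Over all probes kept, 5.29% were higher and 21% lower at that level. Without the filter on dim probes, 7732 of 55170 probes (14%) were higher and 6407 lower. No gene of the set passed after Benjamini-Hochberg adjustment over all probes (0 of 10), where 0% of all probes were called. The median log2 fold change of the 10 genes was 0.80, and that of all probes kept was -0.19. The genes were proposed with earlier results of these data known, so these counts are a description.

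**Figure D1:**
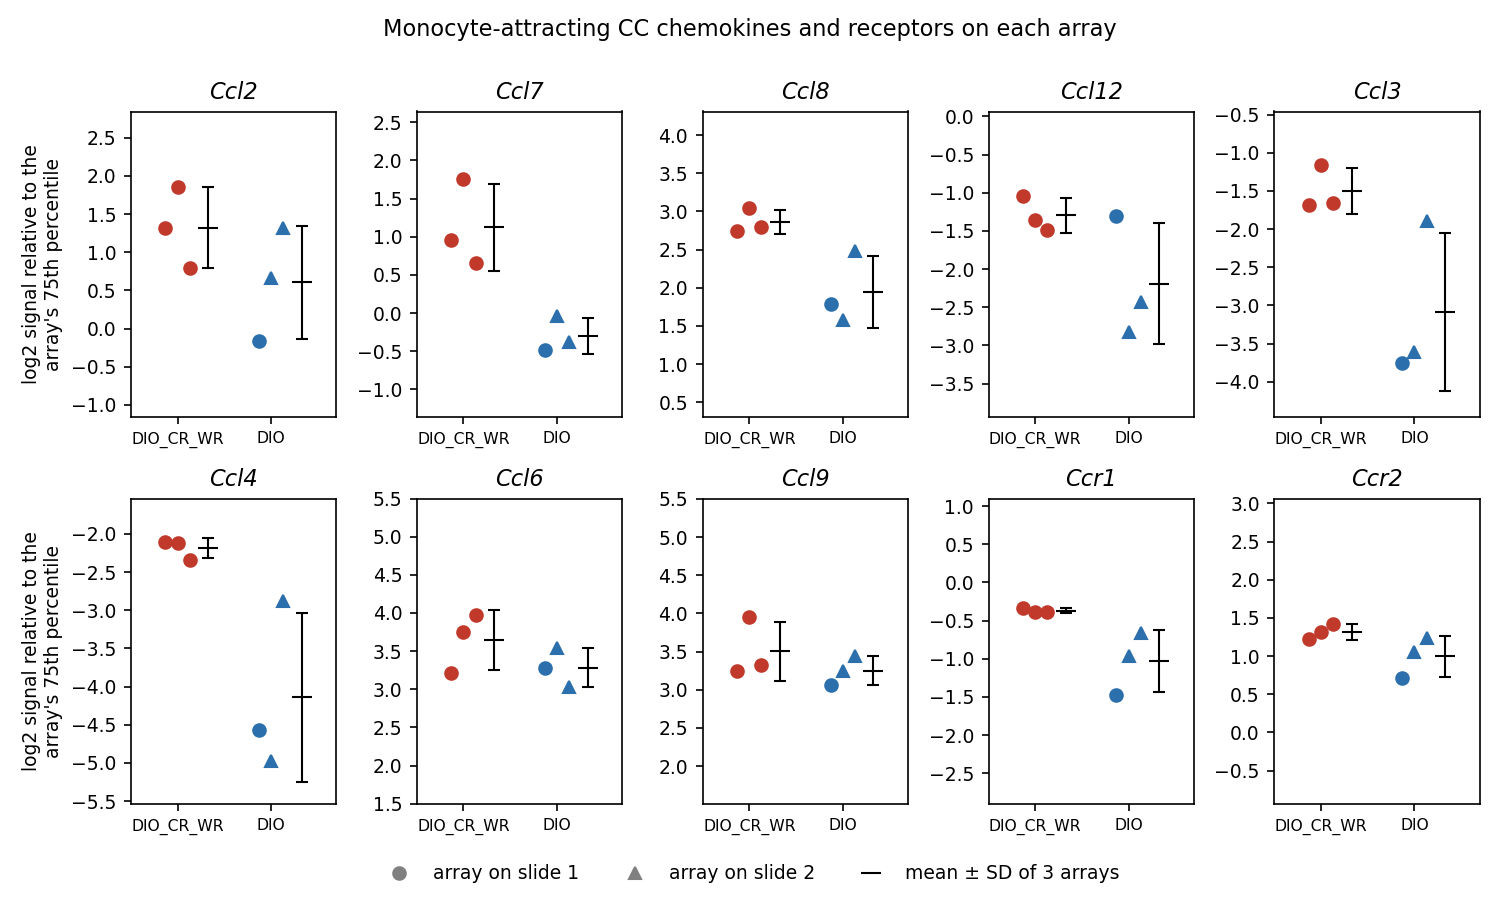
Log2 signal of each gene on each array (y axis, relative to the array's 75th percentile; each panel spans the same range of log2 units), with DIO_CR_WR left and DIO right. Circles are arrays on slide 1, triangles arrays on slide 2, and bars the mean ± SD of 3 arrays; DIO replicate 1 is the blue circle, lowest for 6 of the 10 genes, and in 5 panels every red point lies above every blue point.

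The arrays differed in brightness and in detection. The 75th percentile of the signal ran from 5403 to 6370 on DIO_CR_WR arrays and from 4108 to 4452 on DIO arrays, and the share of probes called well above background was 51.4% to 65.6% on DIO_CR_WR arrays against 68.2% to 79.2% on DIO arrays. Levels below are signals divided by the array's own 75th percentile, so a level of 1 is that percentile. The 3 DIO_CR_WR arrays and DIO replicate 1 were on slide 1, and DIO replicates 2 and 3 on slide 2. With the slide as a block, a fold change therefore sets the 3 DIO_CR_WR arrays against DIO replicate 1 alone. At the unadjusted level above, 2035 probes were higher and 8063 lower in DIO_CR_WR; scaled to spike-in probes these counts were 7985 and 1131, and the median log2 fold change of all probes kept was 0.31.

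All 10 probes were well above background on all 6 arrays and none was saturated, so the filter on dim probes removed no gene of the set and no value is a bound. The probes are 60 bases long, and no pair of them shared a run of more than 9 identical bases. The genes lie in 3 groups on the genome. On build mm9 the probes of Ccl2 (chr11:81850650-81850709), Ccl7 (chr11:81860656-81860715), Ccl12 (chr11:81916764-81916823) and Ccl8 (chr11:81930108-81930167) lie within 79.5 kb on the plus strand of chromosome 11. The probes of Ccl9 (chr11:83388223-83388282), Ccl6 (chr11:83401997-83402056), Ccl3 (chr11:83461358-83461417) and Ccl4 (chr11:83478052-83478111) lie within 89.8 kb farther along that chromosome, the first 3 on the minus strand. Those of Ccr1 (chr9:123877790-123877849, minus strand) and Ccr2 (chr9:124022948-124023007, plus strand) lie 145.2 kb apart on chromosome 9.

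RefSeq's promoter table (build GRCm38.p6) matched 7 of the 10 genes; Ccl2, Ccl7 and Ccl4 were not matched. The 250 bases upstream of the start site are shown for 5 ligands whose differences were of unlike size. Ccl3, with one of the larger differences, is at chr11:83649379-83649628 on the minus strand, Ccl8 at chr11:82114935-82115184 and Ccl12 at chr11:82101595-82101844, both on the plus strand. In these 3 the capitals mark a TATA box or the core bound by the myeloid factor PU.1, on either strand.
Ccl3: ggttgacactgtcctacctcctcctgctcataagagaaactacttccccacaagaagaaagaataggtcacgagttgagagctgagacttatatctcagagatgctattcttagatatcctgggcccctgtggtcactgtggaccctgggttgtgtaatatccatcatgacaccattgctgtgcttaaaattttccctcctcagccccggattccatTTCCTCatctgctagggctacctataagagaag
Ccl8: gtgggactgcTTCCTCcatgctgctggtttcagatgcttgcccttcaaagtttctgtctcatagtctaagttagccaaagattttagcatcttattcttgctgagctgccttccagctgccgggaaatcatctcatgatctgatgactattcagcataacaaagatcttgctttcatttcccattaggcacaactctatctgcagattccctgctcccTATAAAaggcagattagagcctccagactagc
Ccl12: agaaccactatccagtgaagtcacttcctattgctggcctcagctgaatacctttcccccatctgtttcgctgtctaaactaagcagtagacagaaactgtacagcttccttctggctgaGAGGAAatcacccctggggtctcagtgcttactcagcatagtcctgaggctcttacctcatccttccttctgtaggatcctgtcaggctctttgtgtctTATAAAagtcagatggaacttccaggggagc
Ccl6 (chr11:83593088-83593337, minus strand) and Ccl9 (chr11:83578637-83578886, minus strand) are neighbours with the 2 smallest differences among the ligands. In these sequences the capitals mark the longest run that the pair shares, 13 bases long, where no other pair of the 7 sequences shared more than 9.
Ccl6: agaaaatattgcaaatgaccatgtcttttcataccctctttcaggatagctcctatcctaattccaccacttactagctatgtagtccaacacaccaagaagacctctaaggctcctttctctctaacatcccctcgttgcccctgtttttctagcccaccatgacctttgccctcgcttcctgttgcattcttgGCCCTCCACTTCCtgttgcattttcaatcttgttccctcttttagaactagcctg
Ccl9: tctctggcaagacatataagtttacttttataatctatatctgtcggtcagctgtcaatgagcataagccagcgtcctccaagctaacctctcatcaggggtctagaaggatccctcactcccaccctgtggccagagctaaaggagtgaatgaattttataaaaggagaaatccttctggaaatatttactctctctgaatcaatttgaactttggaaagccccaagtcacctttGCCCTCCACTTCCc
The TATA box letters TATAAA were found in 3 of the 7 upstream sequences, those of Ccl8, Ccl12 and Ccl9, and in 12.4% of all 32851 upstream sequences of that length. In Ccl8 and Ccl12 they begin 32 and 31 bases before the start site. The PU.1 letters GAGGAA were found in 4 of the 7, those of Ccl8, Ccl12, Ccl3 and Ccr1, and in 23.3% of all. The AP-1 letters TGANTCA were found in Ccl9 alone and in 6.75% of all, and the C/EBP letters TTGCNNAA in 0 of the 7 and 9.56% of all. An NF-kB site, searched as GGGA followed after any 2 bases by TTCC, was found in 0 of the 7 and 1.21% of all. An interferon response element, searched as GAAA followed after any 2 bases by GAAA, was found in 0 of the 7 and 2.98% of all. Both strands were searched, and a match is a description of these letters only.

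Among the ligands of CCR2, Ccl7 differed most. CCL7, also called MCP-3, is a strong attractant of monocytes. Its level was 1.93, 3.38 and 1.58 on DIO_CR_WR arrays 1 to 3, and 0.717, 0.975 and 0.769 on DIO arrays 1 to 3. The lowest DIO_CR_WR array lay above the highest DIO array, and the spread within DIO was narrow. The fold change was 2.68 (log2 1.42 ± 0.31 SE, 95% interval 0.68 to 2.17), with limma's unadjusted p = 0.00304 and adjusted p = 0.124. With the slide as a block it was 1.60 on the log2 scale.

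Ccl2, which encodes the principal CCR2 ligand MCP-1, had a level of 2.50, 3.61 and 1.73 on the DIO_CR_WR arrays and of 0.893, 1.58 and 2.49 on the DIO arrays. The groups overlapped: DIO replicate 3 lay above DIO_CR_WR replicate 3 and almost at DIO_CR_WR replicate 1. The log2 fold change was 0.71 ± 0.44 SE (95% interval -0.33 to 1.76, limma's adjusted p = 0.326). It was 1.48 within slide 1, 0.33 without DIO replicate 1, 0.45 without DIO_CR_WR replicate 2 and 1.07 without DIO replicate 3. Ccl2 was the only gene of the set spotted more than once, with 10 spots per array. Those spots varied by 4.07% to 7.24% (coefficient of variation) on DIO_CR_WR arrays and by 2.99% to 5.21% on DIO arrays after spots flagged as outliers were left out. On the log2 scale the SD between spots was 0.043 to 0.10, against an SD between arrays of 0.53 in DIO_CR_WR and 0.74 in DIO, so the spots of an array varied far less than the arrays of a group.

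Ccl8 encodes MCP-2, which in mice is known to signal through CCR8. Its level was 6.71, 8.23 and 6.97 on DIO_CR_WR arrays and 3.46, 3.00 and 5.56 on DIO arrays. All DIO_CR_WR arrays lay above all DIO arrays, with DIO replicate 3 the nearest. The log2 fold change was 0.91 ± 0.26 SE (limma's adjusted p = 0.134) and 1.07 with the slide as a block.

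Ccl12 encodes MCP-5, a mouse CCR2 ligand. Its level was 0.486, 0.393 and 0.355 on DIO_CR_WR arrays and 0.403, 0.141 and 0.186 on DIO arrays. DIO replicate 1 lay among the DIO_CR_WR arrays, and the other DIO arrays lay below. The log2 fold change was 0.90 ± 0.40 SE (limma's adjusted p = 0.208). On slide 1 the difference was 0.02, where 1 of 3 DIO_CR_WR arrays was above DIO replicate 1. Without DIO replicate 1 it was 1.33 (limma's adjusted p = 0.0307, range over the alternatives 0.0307 to 0.986), and then group and slide cannot be told apart. Without DIO replicate 2 it was 0.58.

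Ccl4 and Ccl3 had the largest differences of the set. They encode MIP-1 beta and MIP-1 alpha, made by activated macrophages and lymphocytes. The level of Ccl4 was 0.233, 0.229 and 0.198 on DIO_CR_WR arrays and 0.042, 0.0318 and 0.136 on DIO arrays. The DIO_CR_WR arrays were close to each other and above all DIO arrays, while DIO replicate 3 stood above the other DIO arrays. The fold change of Ccl4 was 3.88 (log2 1.96 ± 0.53 SE, 95% interval 0.69 to 3.22), with limma's unadjusted p = 0.00849 and adjusted p = 0.132. Ccl4 gave the dimmest signal of the set: its processed intensity was 1487, 1412 and 1068 on DIO_CR_WR arrays and 187, 135 and 557 on DIO arrays, where the lowest signals called well above background were 369, 143 and 90.5 on DIO_CR_WR arrays and 57.4, 31.5 and 29.3 on DIO arrays.

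The level of Ccl3 was 0.309, 0.448 and 0.317 on DIO_CR_WR arrays and 0.0739, 0.0819 and 0.268 on DIO arrays. The groups did not overlap, and again DIO replicate 3 stood nearest to DIO_CR_WR. The fold change was 3.00 (log2 1.59 ± 0.51 SE, 95% interval 0.37 to 2.80, limma's adjusted p = 0.141). With the slide as a block the log2 fold changes were 2.38 for Ccl4 and 2.26 for Ccl3, and without DIO replicate 3 they were 2.59 and 2.18. Without DIO replicate 2 they were 1.54 for Ccl4 and 1.33 for Ccl3, and without DIO replicate 1 they were 1.74 and 1.25. Ccl3 then no longer passed limma's unadjusted level of 0.05, with unadjusted p = 0.0605 without DIO replicate 2 and unadjusted p = 0.0619 without DIO replicate 1, nor did it without DIO_CR_WR replicate 2 (unadjusted p = 0.0552). After centring each gene, the log2 values of these 2 genes differed by a root mean square of 0.29 over the 6 arrays. The most unlike pair, Ccl4 and Ccl6, was at 1.15 and the closest, Ccr1 and Ccr2, at 0.21. The values were not scaled, so this measure is also large for genes with unlike fold changes.

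Ccl6 and Ccl9, which encode the mouse CCR1 ligands C10 and MIP-1 gamma, had the smallest differences among the ligands. The level of Ccl6 was 9.24, 13.5 and 15.7 on DIO_CR_WR arrays and 9.73, 11.6 and 8.15 on DIO arrays. The level of Ccl9 was 9.46, 15.5 and 9.99 on DIO_CR_WR arrays and 8.32, 9.44 and 10.9 on DIO arrays. For both genes the groups overlapped, and DIO_CR_WR replicate 1 lay within the DIO range. The log2 fold change was 0.36 ± 0.25 SE for Ccl6 (95% interval -0.25 to 0.97) and 0.26 ± 0.24 SE for Ccl9 (95% interval -0.32 to 0.83), with limma's adjusted p = 0.390 and 0.515. Differences of up to 0.97 for Ccl6 and 0.83 for Ccl9 on the log2 scale lie within those intervals. Leaving out single arrays gave 0.20 to 0.58 for Ccl6, lowest without DIO_CR_WR replicate 3 and highest without its replicate 1. For Ccl9 it gave 0.04 to 0.39, lowest without DIO_CR_WR replicate 2 and highest without its replicate 1, and 0.16 without DIO replicate 1.

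Of the receptors, Ccr1 encodes the receptor of CCL3, CCL6 and CCL9 on myeloid cells. Its level was 0.797, 0.764 and 0.763 on DIO_CR_WR arrays and 0.360, 0.515 and 0.634 on DIO arrays. The DIO_CR_WR arrays were nearly alike and lay above the DIO arrays. The log2 fold change was 0.66 ± 0.23 SE (95% interval 0.10 to 1.22, limma's adjusted p = 0.154), 1.11 with the slide as a block and 0.44 without DIO replicate 1. Ccr1 no longer passed limma's unadjusted level of 0.05 without DIO replicate 2 (unadjusted p = 0.0567), nor without any one of the DIO_CR_WR arrays, where limma's unadjusted p was 0.0600 to 0.0673. Ccr2, the receptor that marks blood monocytes on their way into tissue, had a level of 2.32, 2.49 and 2.68 on DIO_CR_WR arrays and of 1.64, 2.08 and 2.37 on DIO arrays. Only DIO replicate 3 reached the DIO_CR_WR range. Its log2 fold change was 0.31 ± 0.19 SE (95% interval -0.14 to 0.77, limma's adjusted p = 0.324), 0.60 with the slide as a block and 0.17 without DIO replicate 1. Ccr1 and Ccr2 were the pair of genes in the set with the most similar centred values over the 6 arrays, with a root mean square difference of 0.21. Ccl9 and Ccr2 were at 0.23, and the measure is small for any genes that vary little. In bulk fat, more cells of a type and more RNA per cell cannot be told apart.

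**Figure D2:**
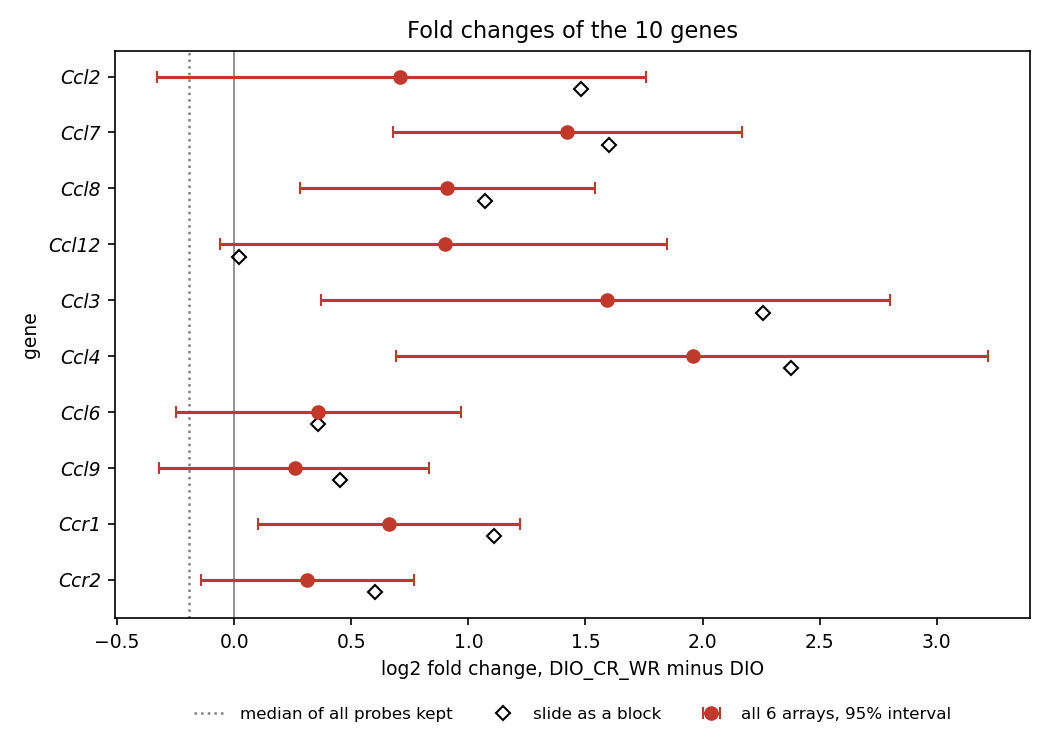
Log2 fold change of each gene, DIO_CR_WR minus DIO, with its 95% interval in limma's fit to all 6 arrays (points and bars), and with the slide as a block (diamonds). The dotted line is the median of all probes kept, -0.19; every point lies to the right of it, the intervals of Ccl2, Ccl12, Ccl6, Ccl9 and Ccr2 include 0, and for Ccl12 the diamond lies at 0.02.

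The order of the differences, from largest to smallest, was Ccl4, Ccl3, Ccl7, Ccl8, Ccl12, Ccl2, Ccr1, Ccl6, Ccr2 and Ccl9; neighbours in this order have overlapping 95% intervals, and differences between genes were not tested. DIO_CR_WR replicate 2 was the highest of the 6 arrays for Ccl2, Ccl7, Ccl8, Ccl3 and Ccl9, replicate 1 for Ccl12, Ccl4 and Ccr1, and replicate 3 for Ccl6 and Ccr2. DIO replicate 1 was the lowest for Ccl2, Ccl7, Ccl3, Ccl9, Ccr1 and Ccr2, and DIO replicate 2 for Ccl8, Ccl12 and Ccl4. No DIO array was the highest for any of the 10 genes (0). On slide 1, all 3 DIO_CR_WR arrays exceeded DIO replicate 1 for 8 of the 10 genes, all but Ccl12 and Ccl6, as for 22.6% of all probes kept.

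The size of the difference varied within each gene cluster. Between Ccl7 and Ccl12 lies Ccl11, the eosinophil attractant eotaxin, whose log2 fold change was -0.02 ± 0.19 SE, and -0.33 within slide 1. Ccl5, or RANTES, which attracts T cells and monocytes, lies just before Ccl9; its log2 fold change was 0.91 ± 0.48 SE, and 1.55 within slide 1. Its level was 5.10, 3.13 and 4.19 on DIO_CR_WR arrays and 1.39, 1.57 and 4.57 on DIO arrays, so DIO replicate 3 lay within the DIO_CR_WR range, as it did for Ccl2 and Ccr2. In the receptor cluster, Ccr3, the eotaxin receptor, had a difference of 0.85 ± 0.51 SE on the log2 scale and 2.06 within slide 1, where DIO replicate 1, at a level of 0.0254, was the lowest array.

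**Figure D3:**
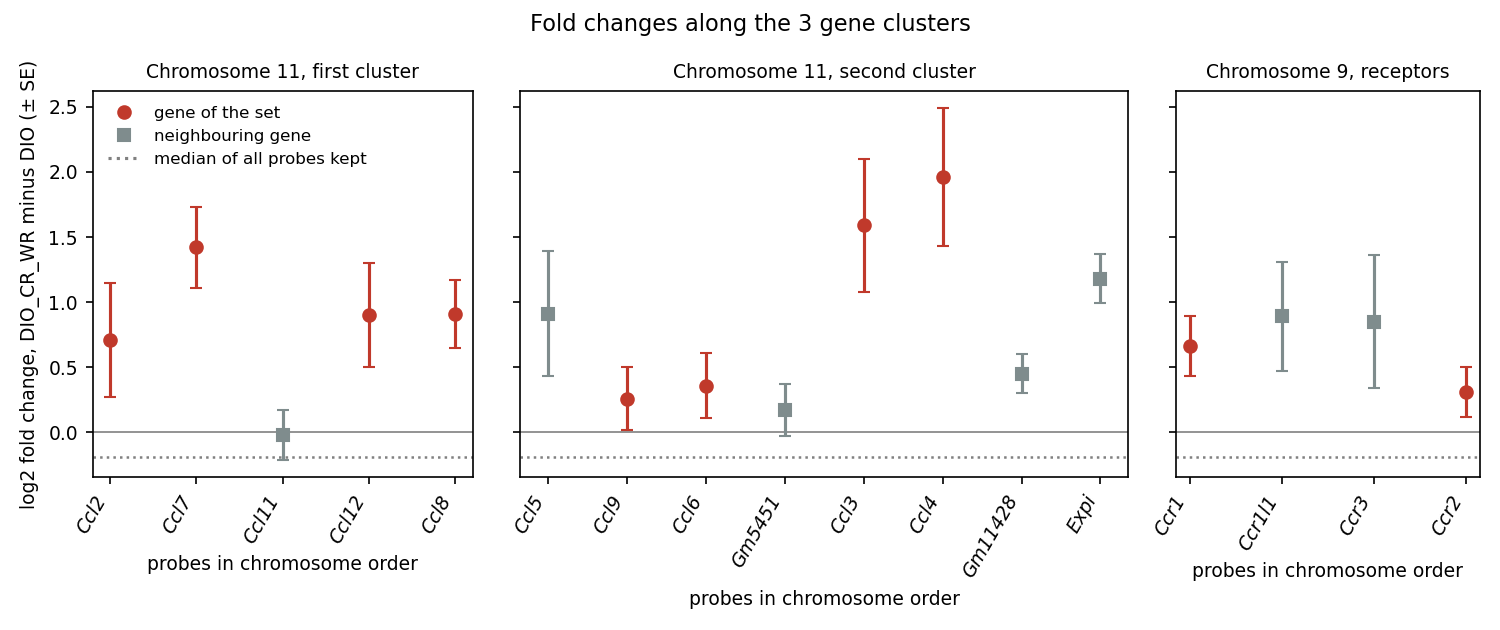
Log2 fold change ± SE, DIO_CR_WR minus DIO, of the 10 genes and of neighbours inside 3 gene clusters or within 50 kb of a cluster's ends, in chromosome order (x axis). Red circles are the 10 genes of the set and grey squares the neighbours shown; Ccl4 at 1.96 is the highest gene drawn, and Ccl11 at -0.02 lies between Ccl7 and Ccl12.

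The rest of the chemokine system gave a mixed picture, and none of the genes named below passed limma's adjusted test (0 in each list). Among all genes with their brightest probe, 5.23% were higher and 21.3% lower at the unadjusted level of 0.05, and the median log2 fold change was -0.20. Of 9 other CC ligands measured, 2 were higher and 2 lower at that level, with a median of -0.06. The higher were Ccl19, which guides T cells and dendritic cells (0.86 ± 0.15 SE), and the mucosal chemokine Ccl28 (0.94 ± 0.22 SE); Ccl27a, a skin chemokine, had -0.66 ± 0.15 SE. Of 10 other CC receptors and decoys 3 were higher and 1 lower, with a median of 0.09. The venular decoy receptor Ackr1 had 0.67 ± 0.18 SE and the lymph node homing receptor Ccr7 had 1.19 ± 0.35 SE.

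Of 26 measured inducers and regulators of monocyte chemokine genes, the test gave 6 higher and 2 lower at the unadjusted level, with a median log2 fold change of 0.20. Interferon gamma (Ifng) had 1.93 ± 0.29 SE, Il6 1.07 ± 0.23 SE and the endotoxin receptor Tlr4 1.70 ± 0.43 SE. Ifng and Il6, like Tnf, were well above background on 2 of 3 DIO_CR_WR arrays, all but replicate 1. Their values therefore rest in part on a signal near background. The lowest signals called well above background were also higher on DIO_CR_WR arrays (90.5 to 369) than on DIO arrays (29.3 to 57.4). What this adds to the differences of dim genes was not tested. The inducing cytokines Il1b and Tnf had 1.02 ± 0.26 and 0.89 ± 0.44 SE (1.06 and 1.78 within slide 1), and Csf1, the macrophage growth factor, 0.44 ± 0.20 SE. Both values of Tnf include DIO_CR_WR replicate 1, where its signal was not well above background. Of 22 genes of chemokine receptor signalling and adhesion, 5 were higher and 0 lower, with a median of 0.28. The adhesion molecules on which monocytes leave vessels, Vcam1 and Icam1, had 1.30 ± 0.22 and 0.67 ± 0.14 SE, and the PI3 kinase subunit Pik3r5 0.96 ± 0.33 SE. Within slide 1, Vcam1 was at 0.94 and Icam1 at 0.70.

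Of 19 measured monocyte and macrophage markers, 3 were higher and 0 lower at the unadjusted level, and their median was 0.39. The 3 were the scavenger receptor Msr1 (1.26 ± 0.24 SE), the mannose receptor Mrc1 (0.67 ± 0.15 SE) and the integrin Itgax (1.14 ± 0.33 SE). The general macrophage marker Cd68 had a log2 fold change of -0.22 ± 0.32 SE, Adgre1, which encodes F4/80, 0.42 ± 0.26 SE, and the CSF1 receptor gene Csf1r 0.00 ± 0.24 SE. Within slide 1 these were 0.38, 0.83 and 0.37. The summed level of the list was 113 to 121 on DIO_CR_WR arrays and 93.0 to 133 on DIO arrays, so the groups overlapped. Sums of this kind, here and below, add levels that are not logged, so the brightest genes weigh most. The part of this list in the chemokine differences was not tested. Ly6c2, a marker of inflammatory monocytes, was not among the genes measured.

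Markers of lymphoid cells included higher and lower genes, and their part in the chemokine differences was not tested. Of 16 T and NK cell markers the unadjusted level gave 8 higher and 0 lower, a median of 0.97 and a summed level of 5.57 to 7.80 on DIO_CR_WR arrays and 3.08 to 5.67 on DIO arrays, so the groups overlapped. The lectin-like receptor genes Klrk1 and Klrd1 were at 2.24 ± 0.41 and 1.69 ± 0.33 SE, and Cd3g, of the T cell receptor complex, at 1.60 ± 0.38 SE. Klrk1 was well above background on 2 of 3 DIO_CR_WR arrays and 1 of 3 DIO arrays, so its value rests in part on signals near background. Of 8 B cell markers 3 were higher and 1 lower (median 1.18; summed level 2.40 to 6.78 on DIO_CR_WR arrays and 2.55 to 3.47 on DIO arrays), with Fcrla at 1.63, Cd79b at 1.51 and Cr2 at -0.83. Of 5 lymph node stroma and venule markers 2 were higher and 1 lower (median 0.44; summed level 4.19 to 7.08 on DIO_CR_WR arrays and 2.16 to 2.83 on DIO arrays), with Cxcl13 at 1.70, Ccl19 as above and Chst4 at -1.05. Lymph nodes lie within this fat depot. The B cell marker Cd79a, which is on the array but had no probe kept, was not among the genes measured. Nor were Ccl21a and Glycam1, markers of lymph node stroma and venules.

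Of 12 neutrophil markers 2 were higher and 3 lower (median 0.36; summed level 20.8 to 23.4 on DIO_CR_WR arrays and 21.9 to 22.8 on DIO arrays). S100a8, an alarmin, was at 1.02 on the log2 scale, and the granule proteins Mpo and Elane, above background on 1 DIO_CR_WR array, had -0.82 and -0.84. The level of S100a8 was 4.08, 3.95 and 3.78 on DIO_CR_WR arrays and 3.22, 1.70 and 1.33 on DIO arrays. Of 7 mast cell markers 2 were higher and 0 lower (median 0.64; summed level 5.53 to 6.70 on DIO_CR_WR arrays and 4.61 to 5.70 on DIO arrays), with Fcer1a at 1.58, Cpa3 at 0.70 and Tpsb2 at 0.64. For S100a8, Cpa3 and Tpsb2, DIO replicate 1, on slide 1, was the highest DIO array, and for Fcer1a the lowest. Of 12 adipocyte markers 0 were higher and 4 lower, with a median of -0.39 and a summed level of 213 to 257 on DIO_CR_WR arrays and 254 to 308 on DIO arrays. The fatty acid transporter Cd36, the fat-made protease Cfd and the lipase gene Lipe had -0.66, -0.83 and -0.55, and Adipoq, the adiponectin gene, 0.16. Of 10 skeletal muscle markers 0 were higher and 5 lower, with a median of -0.58 and a summed level of 165 to 219 on DIO_CR_WR arrays and 267 to 299 on DIO arrays; Atp2a1, Ckm and Myl1 had -1.07, -0.54 and -0.85.

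Relative to the median of all genes, several list medians moved when the slide was a block. The mast cell list was then 0.33 above it (0.84 without the block), the neutrophil list 0.28 (0.55), the other CC receptors 0.60 (0.29), receptor signalling 0.74 (0.48), T and NK cells 1.57 (1.16) and B cells 1.78 (1.37). The monocyte and macrophage list was 0.72 above it (0.59 without the block).

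**Figure D4:**
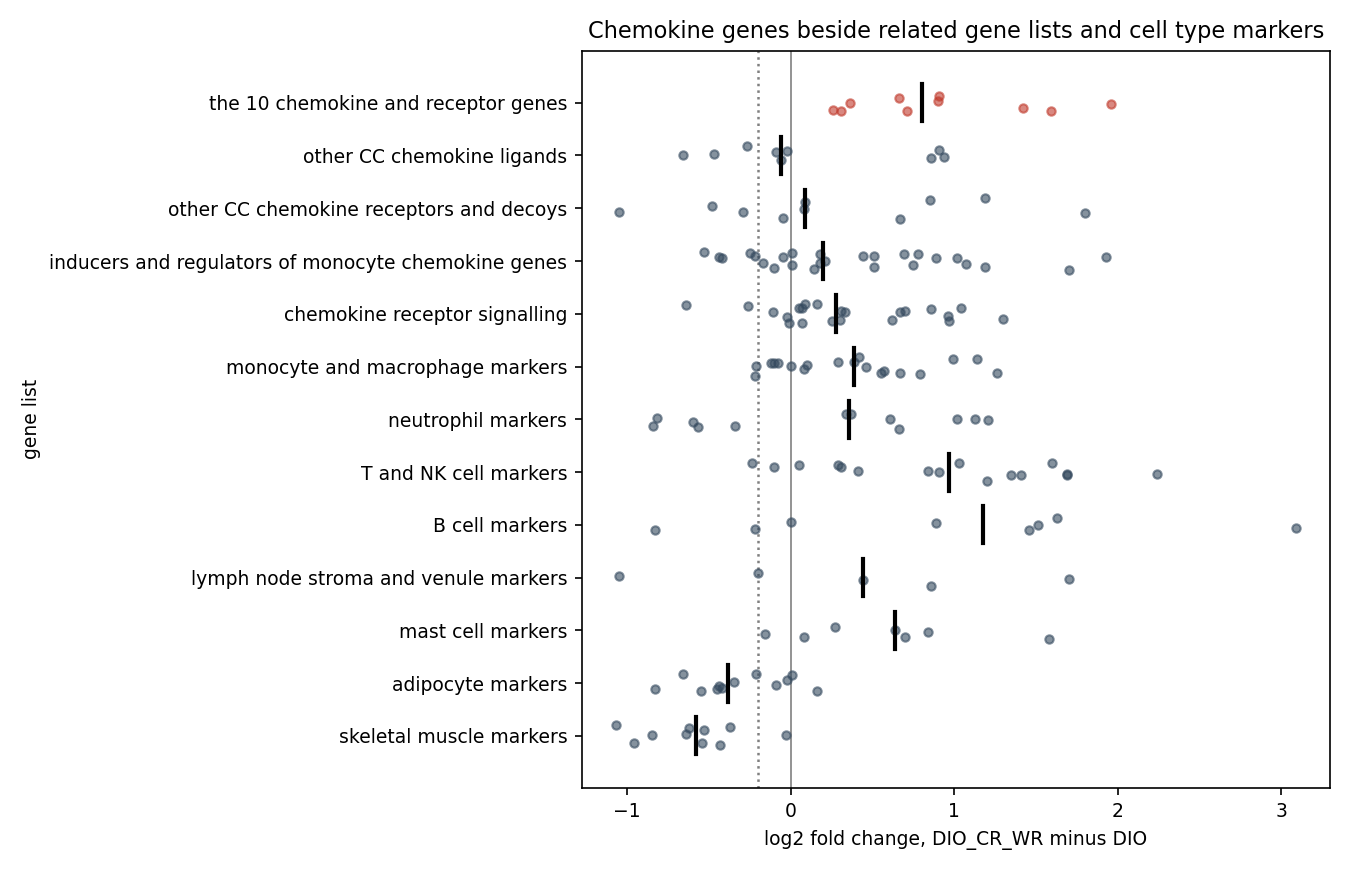
Log2 fold changes, DIO_CR_WR minus DIO (x axis), of the 10 genes (red) and of the measured genes in related lists and cell type marker lists (dark points), with each list's median as a black bar and the median of all genes, -0.20, as a dotted line. The 10 genes have a median of 0.80, T and NK cell markers 0.97, macrophage markers 0.39 and adipocyte markers -0.39.

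By the centred log2 values over the 6 arrays, the genes most like Ccl2 among 15350 named genes outside the set were Dsg1a, Spdl1, Cyp2c70, Sgo2a and Gpr183. Their root mean square differences from Ccl2 were 0.11, 0.15, 0.16, 0.17 and 0.17. All 5 were low on DIO replicate 1 and highest on DIO_CR_WR replicate 2, as Ccl2 was, and their log2 fold changes were 0.50 to 0.89. They were picked from 15350 genes for likeness over only 6 values, so the shared pattern follows from the selection.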

How the data were processed

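The deposited values are spot intensities from 6 Agilent 1-colour arrays of design 028005, made from 0.5 µg of RNA per the labels. Per the file headers, Feature Extraction (10.7.3.1 there, 10.7.1.1 in the submitters' processing notes) removed a spatial background, evened out brightness across each array and gave near-background spots a surrogate signal, with no step between arrays. Other deposited columns hold flags of 0 or 1 per spot. A series-wide table (18 value columns) was left out, since its headings and the sample titles disagree.

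With R 4.3.3 and limma 3.58.1, 3671 control spots were set aside, spots flagged as outliers were left out and spots of a probe were averaged on the log2 scale. Each array's 75th percentile over 55681 non-control probes was subtracted. Probes well above background on at least 3 of 6 arrays were kept (38743), less 286 with an outlier flag on an array, which left 38457. The comparison, DIO_CR_WR over DIO, used limma's moderated test, two-sided, adjusted by Benjamini-Hochberg at 0.05. A gene list uses each gene's brightest kept probe and was given by counts and median. The members and lists were chosen with earlier results of these data known. Named from each list were the 3 genes with the smallest p, and Ccl5, Tnf, Il1b, Csf1, Adgre1, Cd68, Ly6c2 and Adipoq always; Csf1r, Ccl11 and Ccr3 were added after their values were seen. Results of some genes that these rules pick are not reported here. Older gene symbols were updated by accession. An exact permutation test of 3 against 3 arrays cannot give p below 0.1 and was not used. The alternatives were another background correction, other normalizations and filters, probes per gene, variance models, replicate and slide blocks and leaving out each array. The fit was tested on simulated data.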

Additional observations from a re-analysis of the deposited data

How the results depend on the processing

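All 10 genes had a log2 fold change above 0 under all 18 alternatives. With a single probe per gene, changes of filter, probes per gene, variance model or replicate block could not alter these fold changes. The slide block and the fit to its first slide alone gave the same values as each other. The adjusted threshold was passed by Ccl12 without DIO replicate 1. Most of the 18 alternatives called 0 probes on the whole array, so the lack of other calls says nothing about stability. The number of genes of the set that were higher at an unadjusted p under 0.05 was 5 in the reported fit (5.29% of all probes), 8 with normexp and quantile normalization (7.67%), 10 with spike-in scaling (20.8%) and 7 with a slide block (4.35%). Leaving out single arrays gave 3 to 6, with 3 without DIO replicate 2 (2.96%) and 3 without DIO_CR_WR replicate 2 (3.52%). Over the whole array the adjusted test called 0 probes in the reported fit, 6 with spike-in scaling, 48 where only probes well above background on all 6 arrays were tested; leaving out single arrays gave 0 to 5361, the highest without DIO replicate 1, where the groups are on different slides. The cause of these changes was not tested. The median of all probes was -0.19 in the reported fit, 0.31 with spike-in scaling and -0.07 with median centring. With the replicate number as a block 6 genes of the set (4.69% of all probes) were higher at an unadjusted p under 0.05 and 0 probes were called; no label states a pairing, and arrays of the same number had correlations of deviations across probes of 0.00, -0.13 and -0.21. Precision is limited by 3 arrays per group.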
